A study of Tribolium castaneum with 183 samples.

Results

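The vitellogenin receptor genes of the red flour beetle *Tribolium castaneum* were followed here in whole females under heat, drought and both. Rows of the count table were taken by identifier: TC004042 (named VgR-1), TC008595 (VgR) and TC008596 (VgR-2), with the names that the study gives them. These are 3 of 17078 genes in the table and of 12113 that passed the filter on low values. All 3 passed that filter. RNA of single females was sequenced, with 1 library each: 43 in Hot-Dry (37°C and 30% relative humidity), 45 in Hot (37°C and 70%), 48 in Dry (33°C and 30%) and 47 in Control (33°C and 70%). The females belonged to the Cro1 strain, a wild-caught stock kept for many generations in the Control conditions, and are 8 weeks old in the labels. The text of the study gives a later age. There the females were held for 8 weeks from the pupal stage before egg laying and frozen after it, so they were older when frozen. Each condition was applied from the egg stage. The labels name no allele or drug, and the females had been mated and kept for egg laying before they were frozen. Full-sib families were read from the leading number in each name (12 families, each with 3 or 4 females in each condition). Sibs of 1 condition hatched in the same vial, so family and rearing vial cannot be told apart. The list from which the 3 names were taken holds genes that the study had called changed in Hot or Hot-Dry, so the calls in these conditions are not independent of how the genes were chosen. A further gene with a receptor name, TC008425 (VgR2), was not on that list and its values are given beside those of the 3.

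Vitellogenin is the precursor of the main yolk protein of insect eggs. It is made in the fat body, released into the hemolymph and taken up by the growing oocyte through the vitellogenin receptor, a large membrane protein of the low-density lipoprotein receptor family that carries its load into the cell by endocytosis. The receptor is therefore known as an ovarian protein. In whole bodies, fewer cells of a type and less RNA per cell cannot be told apart. What sets the functions of the 3 beetle genes apart is not given in the sources used here.

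The libraries held 4873334 to 15533288 counted reads, and the median library had 9057850 in Hot-Dry, 8652660 in Hot, 9630120 in Dry and 8451640 in Control. At this depth all 3 receptor genes were counted in every female: VgR-1 with 83 to 1314 reads, VgR with 204 to 2034 and VgR-2 with 1746 to 9595. At the mean count of each condition, counting error was thus small. It was 4.25% to 4.96% of the mean for VgR-1, 3.45% to 4.03% for VgR and 1.43% to 1.63% for VgR-2. It was larger in females with fewer reads, such as the one with 83 of VgR-1. Levels are given in cpm, counts scaled to a common library size with factors from the trimmed mean of M-values (TMM), and they are not compared between genes since gene lengths were not used.

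VgR-1 had 19.1, 44.9 and 62.9 cpm in the lowest, median and highest Hot-Dry female. The same 3 values were 15.95, 43.5 and 62.9 cpm in Hot, 35.2, 56.7 and 93.5 cpm in Dry, and 34.2, 54.7 and 77.99 cpm in Control. Both conditions at 37°C were low and both at 33°C were high, with overlap between all 4: 40 of 43 Hot-Dry females and 39 of 45 Hot females lay under the Control median, but only 5 Hot-Dry and 7 Hot females lay under the lowest Control female.

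VgR had 27.2, 65.7 and 101 cpm in the lowest, median and highest Hot-Dry female and 37.0, 65.5 and 101 cpm in Hot. At 33°C the values were 54.9, 87.2 and 137 cpm in Dry and 49.8, 84.3 and 121 cpm in Control. The groups overlapped again, although 41 of 43 Hot-Dry females and 41 of 45 Hot females were under the Control median.

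VgR-2 showed the same 2 levels. The lowest, median and highest female had 265, 415 and 567 cpm in Hot-Dry, 221, 412 and 576 cpm in Hot, 369, 504 and 764 cpm in Dry, and 331, 509 and 684 cpm in Control. Under the Control median were 39 of 43 Hot-Dry females and 43 of 45 Hot females, whereas 25 of 48 Dry females were. For each of the 3 genes, Dry and Control were neighbours in the order of median levels, as were Hot-Dry and Hot, and neither pair of neighbours passed a test of their difference, whereas each condition at 37°C differed from each at 33°C.

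**Figure D1:**
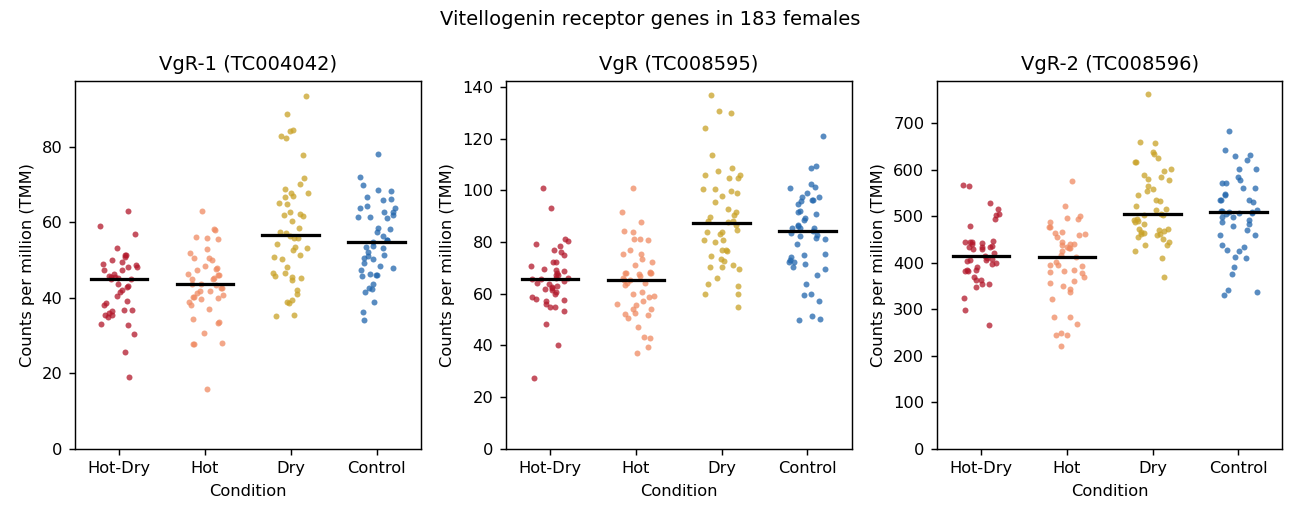
Levels in cpm (TMM scaled, axis from 0) of VgR-1, VgR and VgR-2 in each female, by condition, with a black bar at the median. The clouds of Hot-Dry and Hot sit at medians of 44.9 and 43.5 cpm for VgR-1, against 54.7 cpm in Control, and overlap with it.

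The comparison with Control addresses how heat, drought and their combination change receptor transcripts. In Hot-Dry all 3 genes were lower than in Control: VgR-1 fell by 21.6%, VgR fell by 20.7% and VgR-2 fell by 17.1%. The log2 fold changes were -0.35 (standard error, SE, 0.067, adjusted p = 8.52e-06) for VgR-1, -0.33 (SE 0.064, adjusted p = 9.04e-06) for VgR and -0.27 (SE 0.053, adjusted p = 1.52e-05) for VgR-2, from edgeR's quasi-likelihood test on all females with Benjamini-Hochberg adjustment over all genes. Of all genes tested, 15.1% were called lower in this comparison at an adjusted p of 0.05 or less, so a call alone does not set the 3 genes apart. Of all genes, 6.51%, 7.04% and 9.31% had a lower log2 fold change than VgR-1, VgR and VgR-2. The median was -0.0085 over all genes and -0.23 over genes called lower. Since the 3 genes came from a list of genes called changed in Hot or Hot-Dry, these ranks are not independent of that choice.

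Heat in humid air gave changes of like size. In Hot relative to Control, VgR-1 fell by 21.0%, VgR fell by 21.2% and VgR-2 fell by 21.0%. The log2 fold changes were -0.34 (SE 0.066, adjusted p = 2.05e-05), -0.34 (SE 0.063, adjusted p = 6.15e-06) and -0.34 (SE 0.052, adjusted p = 6.70e-08) in edgeR's test, in which 12.2% of all genes were called lower. The Hot-Dry and Hot comparisons share the Control females and are not independent of each other.

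Hot-Dry against Dry is a comparison of heat in dry air, and it shares no female with Hot against Control. VgR-1 was lower by 26.4% in Hot-Dry than in Dry (log2 fold change -0.44, SE 0.067, adjusted p = 1.63e-08, edgeR). VgR fell by 26.0% (-0.44, SE 0.064, adjusted p = 6.13e-09) and VgR-2 by 19.9% (-0.32, SE 0.053, adjusted p = 2.12e-07), where 15.8% of all genes were called lower. All 3 genes were also called lower in Hot than in Dry, with log2 fold changes of -0.43 for VgR-1, -0.44 for VgR and -0.39 for VgR-2, and so were 16.1% of all genes.

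Drought alone left the receptor genes without a call. In Dry relative to Control the log2 fold changes were 0.091 (SE 0.065, adjusted p = 0.816) for VgR-1, 0.10 (SE 0.062, adjusted p = 0.731) for VgR and 0.050 (SE 0.051, adjusted p = 0.901) for VgR-2. None of the 3 was called, and edgeR called 0.809% of all genes in either direction. None reached an unadjusted p under 0.05 in edgeR, and DESeq2 and limma-voom called 0 of the 3. Between Hot-Dry and Hot, which differ in humidity at 37°C, the changes were -0.011 (SE 0.068) for VgR-1, 0.0099 (SE 0.064) for VgR and 0.070 (SE 0.053) for VgR-2. Here too 0 of 3 were called by edgeR, DESeq2 or limma-voom, 0 had an unadjusted p under 0.05, and edgeR called 2.28% of all genes in either direction. A missed threshold does not show that the levels were equal.

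Whether heat acted differently in dry and humid air was tested as an interaction, (Hot-Dry minus Dry) minus (Hot minus Control). Its estimate was -0.10 (SE 0.094, unadjusted p = 0.280) for VgR-1, -0.091 (SE 0.089, unadjusted p = 0.313) for VgR and 0.019 (SE 0.074, unadjusted p = 0.796) for VgR-2. EdgeR called 0 of the 3, as did DESeq2 and limma-voom, and it called 0.00826% of all genes, or 1 gene.

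The tests above treat females as independent, while sibs from 1 vial were more alike than other females, so the families were also used as the unit. Each family gave 1 difference of mean log2 cpm per comparison, and a two-sided exact sign-flip test was applied to the 12 differences, run on all genes and adjusted over all of them (smallest possible unadjusted p = 0.000488). In Hot-Dry minus Control, VgR-1 was lower in 10 of 12 families (mean -0.35 ± 0.27, SD over families, adjusted p = 0.0239). VgR was lower in 11 of 12 (-0.32 ± 0.28, adjusted p = 0.0239), and VgR-2 also in 11 of 12 (-0.26 ± 0.26, adjusted p = 0.0499). The last value lay at the threshold and did not pass it when family medians replaced means (adjusted p = 0.0943). This test called 7.57% of all genes lower. Family 245 was higher in Hot-Dry than in Control for each of the 3 genes, and family 432 for VgR-1 (0.10).

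In Hot minus Control, VgR-2 was lower in 12 of 12 families (mean -0.35 ± 0.19, SD, exact sign-flip adjusted p = 0.0198). VgR-1 was lower in 11 of 12 (-0.35 ± 0.21, adjusted p = 0.0258) and VgR in 11 of 12 (-0.34 ± 0.23, adjusted p = 0.0301), where 4.38% of all genes were called lower. With family medians VgR-1 just missed the threshold (adjusted p = 0.0501). All 3 genes were also called lower in Hot-Dry minus Dry, in 10, 11 and 11 of 12 families for VgR-1, VgR and VgR-2 (8.24% of all genes), and in Hot minus Dry, in 11, 11 and 12 of 12 families (9.82% of all genes). When the counts of sibs of 1 condition were summed before edgeR's test, all 3 genes were called in each of these 4 comparisons, with adjusted p of up to 0.0406 (VgR-1, Hot minus Control).

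**Figure D2:**
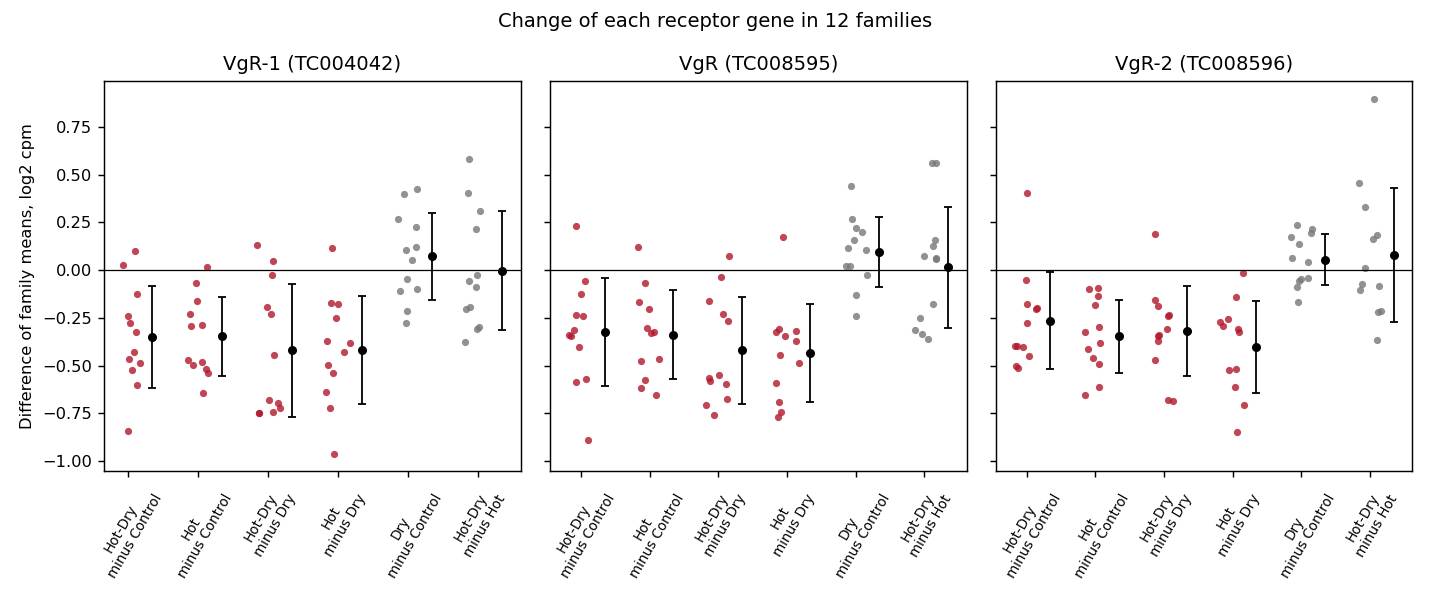
Difference of family means in log2 cpm (vertical axis) of VgR-1, VgR and VgR-2 in 12 families for 6 comparisons, with 1 point a family and the mean ± SD in black. Red points compare a condition at 37°C with one at 33°C and lie mostly under 0 (VgR-2 in Hot minus Control in 12 of 12 families). Grey points compare humidities at 1 temperature and lie on both sides of 0.

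The 3 genes did not differ detectably from each other in the size of these changes. For each pair of genes and each of 7 comparisons (6 pairs of conditions and the interaction), the difference of their family changes was tested with the exact sign-flip test, 21 tests in all. The smallest unadjusted p was 0.0908 and the smallest adjusted p was 0.806. In Hot minus Control, VgR-2 minus VgR-1 was 0.00081 (95% interval over 12 families -0.14 to 0.14) and VgR minus VgR-1 was 0.0089 (-0.081 to 0.099), so differences of the size of the changes themselves lay outside the intervals. In Hot-Dry minus Control VgR-2 minus VgR-1 was 0.085 (-0.052 to 0.22).

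TC008425 (VgR2) had a wider spread among females. It had 36.9, 78.3 and 198 cpm in the lowest, median and highest Hot-Dry female and 45.5, 78.8 and 237 cpm in Hot, against 58.4, 97.0 and 268 cpm in Dry and 44.1, 85.9 and 276 cpm in Control. Its log2 fold changes of -0.28 in Hot-Dry (SE 0.135, adjusted p = 0.104, edgeR) and -0.28 in Hot (SE 0.133, adjusted p = 0.113) relative to Control did not pass the test, whereas it was called lower in Hot-Dry than in Dry (-0.33, adjusted p = 0.0465) and in Hot than in Dry (-0.33, adjusted p = 0.0444). With families as the unit neither call held (exact sign-flip adjusted p = 0.136 in Hot-Dry minus Dry and 0.0960 in Hot minus Dry). Its coefficient of variation (SD over mean) was 43.7% in Hot-Dry and 53.5% in Control. For VgR-1, VgR and VgR-2 it ran from 15.0% (VgR-2 in Dry) to 24.99% (VgR-1 in Dry), beside a median of 20.8% to 22.7% over 8756 genes that averaged 5 cpm or more.

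The ligands of the receptor, vitellogenin 1 (Vg1, TC013602) and vitellogenin 2 (Vg2, TC010839), made up a large part of the RNA. Vg1 had a median of 71624 cpm in Hot-Dry, 91175 cpm in Hot, 108358 cpm in Dry and 102132 cpm in Control. Females differed widely: in Hot-Dry Vg1 ran from 296 to 152080 cpm and Vg2 from 290 to 88619 cpm. In Control they ran from 15571 to 263079 cpm and from 10070 to 161010 cpm. Relative to Control, Vg1 was called lower in Hot-Dry (log2 fold change -0.66, SE 0.17, adjusted p = 0.00154, edgeR) and was not called in Hot (-0.31, SE 0.17, adjusted p = 0.188). For Vg2 the values were -0.82 (SE 0.18, adjusted p = 0.000111) in Hot-Dry and -0.41 (SE 0.17, adjusted p = 0.069) in Hot. With families as the unit, both passed in Hot-Dry minus Control (exact sign-flip adjusted p = 0.0381 for Vg1 and 0.0313 for Vg2). Neither passed in Hot minus Control (0.359 and 0.160). In Hot minus Dry both were called lower by the sign-flip test (0.0267 and 0.0103) and not by edgeR (0.164 and 0.0695). Scaling moved all genes: without TMM factors the median gene stood at 0.086 in Hot-Dry minus Control, against -0.0073 with them, and the calls split into 3079 higher and 616 lower genes, against 1896 and 1826. The receptor genes were lower under both scalings, with log2 fold changes of -0.25, -0.23 and -0.17 for VgR-1, VgR and VgR-2 without the factors (adjusted p of up to 0.0317), a change by over 1.5 times for VgR-2. With Vg1 and Vg2 left out of the table they were -0.35, -0.34 and -0.27.

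Some other putative ovarian transcripts were called lower at 37°C. The study's list of 14 putative ovarian genes was tested in full, and 7 were called lower in Hot-Dry than in Control and 7 in Hot, with 0 higher in either, where 15.1% and 12.2% of all genes were called lower. The median log2 fold change of the list was -0.17 in Hot-Dry and -0.076 in Hot, where the median of all genes was -0.0085 and -0.0055. Among the genes called were Vasa (TC010103), a germ-line RNA helicase in the fly *Drosophila* (-0.21 in Hot-Dry and -0.19 in Hot), Spindle E (TC014516), a helicase of the fly's piRNA pathway (-0.19 and -0.17), and Piwi (TC008711), the fly's piRNA-binding germ-line protein (-0.15 and -0.087). Mago nashi (TC016112), a part of the exon junction complex, was lower by 0.24 on the log2 scale in both. The others called in both were TC003416 (-0.29 and -0.22), TC010546 (-0.19 and -0.18) and TC011262 (-0.19 and -0.22). These genes can also be active outside the ovary.

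Summed over the 14 ovarian genes, the level ran from 1053 to 1447 cpm in Hot-Dry females (median 1326 cpm), from 1107 to 1545 cpm in Hot (1361 cpm), from 1300 to 1739 cpm in Dry (1462 cpm) and from 1266 to 1623 cpm in Control (1466 cpm), with no gene of the list at 0 in any condition. The germ-line markers Vasa, Piwi and Spindle E were present throughout, with a summed median of 446 cpm in Hot-Dry and 492 cpm in Control. The part of these levels in the receptor result was not tested beyond the relative levels that follow.

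Relative to the mean log2 level of the 14 ovarian genes in the same families, the receptor genes were still lower in Hot than in Control. The differences were -0.25 ± 0.16 (SD) for VgR-2, lower in 12 of 12 families (exact sign-flip adjusted p = 0.0184 over all genes), -0.26 ± 0.20 for VgR-1, lower in 10 (adjusted p = 0.0424), and -0.25 ± 0.21 for VgR, lower in 10 (adjusted p = 0.0441). Of all genes set against this list, 1.59% were called lower. In Hot-Dry minus Control the relative differences were smaller, at -0.20 for VgR-1, -0.18 for VgR and -0.12 for VgR-2, and 0 of 3 passed (adjusted p = 0.0657, 0.114 and 0.279, 2.21% of all genes called lower). Compared directly, Hot-Dry minus Hot relative to the list was 0.053, 0.070 and 0.14, and 0 of 3 passed (exact sign-flip adjusted p = 0.774, 0.691 and 0.494). A difference between Hot-Dry and Hot was therefore not shown. In Hot minus Dry all 3 were called lower relative to the list (-0.30, -0.32 and -0.29, where 2.89% of all genes were), and in Hot-Dry minus Dry only VgR was (-0.25, adjusted p = 0.0355, where 2.32% were). Against Vasa, Piwi and Spindle E alone, the difference in Hot minus Control passed for VgR-2 (-0.19, adjusted p = 0.0236) and was -0.20 (adjusted p = 0.0571) for VgR-1 and -0.19 (adjusted p = 0.0665) for VgR.

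**Figure D3:**
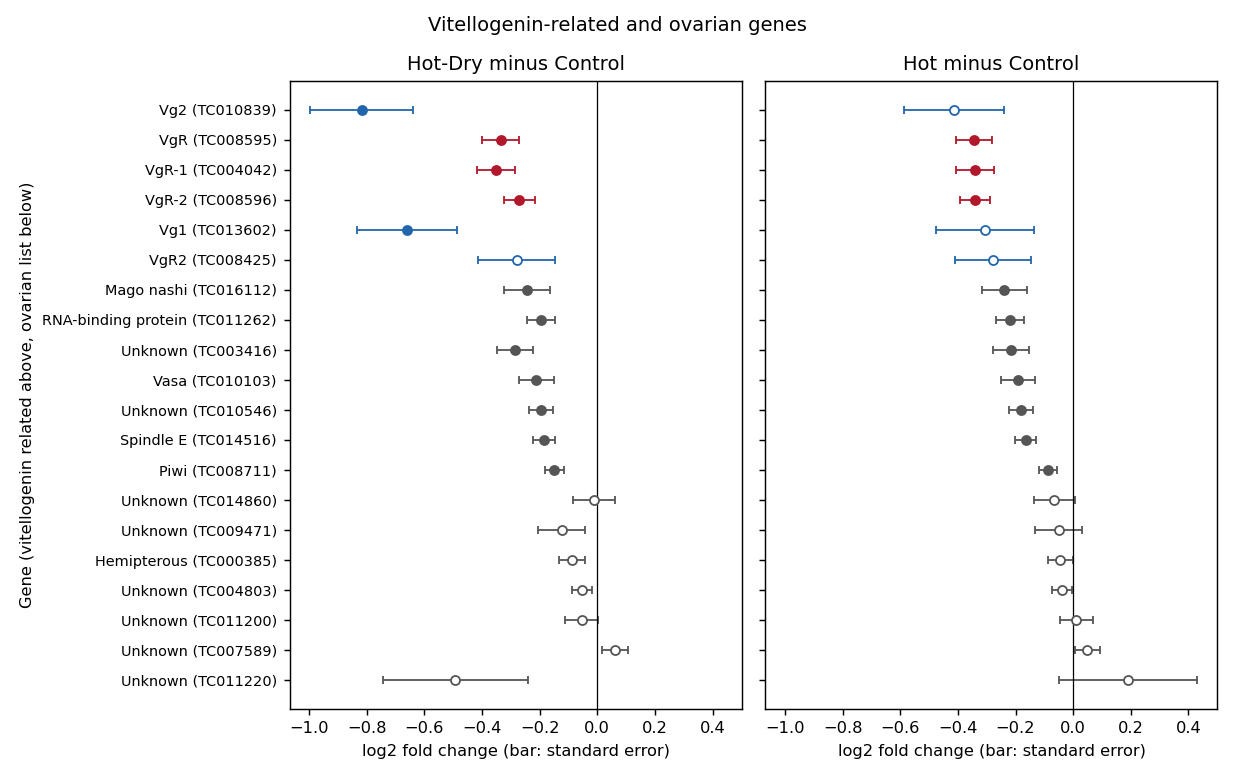
Log2 fold change (horizontal axis, bar 1 standard error) of 6 vitellogenin-related genes and 14 putative ovarian genes in Hot-Dry minus Control (left) and Hot minus Control (right). Filled points passed edgeR's test, red marks VgR-1, VgR and VgR-2, blue Vg1, Vg2 and VgR2, and grey the ovarian list. In Hot-Dry the 3 red points lie between -0.35 and -0.27 and the 7 filled grey points between -0.29 and -0.15. In Hot the red points lie at -0.34 and the filled grey points between -0.24 and -0.087.

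Within the study's whole list of 56 reproduction genes, which includes the receptors, 25 were lower and 2 higher in Hot-Dry than in Control, and 19 were lower and 0 higher in Hot, where 15.1% and 12.2% of all genes were called lower. In Dry 0 of the 56 were called. By process, 2 of 7 juvenile hormone genes, 6 of 14 genes of ecdysteroid synthesis and action and 4 of 13 insulin and TOR genes were lower in Hot-Dry, and 2, 4 and 3 in Hot. Of the 6 vitellogenin-related genes 5 were lower in Hot-Dry and 3 in Hot, the 3 in Hot being VgR-1, VgR and VgR-2 themselves, which had been taken from a list of changed genes. Differences between processes were not tested.

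Families differed in their receptor levels. Within Dry the family explained 78.8% of the variance of log2 cpm between females for VgR-1, 67.6% for VgR and 51.6% for VgR-2, and a test of 12 family means within the condition (edgeR's quasi-likelihood F test) gave adjusted p of 1.20e-08, 6.15e-06 and 0.0142. VgR-1 in Dry was high even among all genes, as 99.1% of genes had a lower family share, the median being 49.9%. The share in Dry was also high for Vg1 (78.5%, with 99.1% of genes lower) and Vg2 (69.97%), but not for VgR2 (49.0%). Vg1 and Vg2 did not pass the F test there, so a high share alone did not go with a call. VgR-1, VgR and VgR-2 all passed in Dry, where 74.3% of all genes did. In Control all 3 passed as well (74.3% of all genes), and in Hot (78.8% of all genes). In Hot-Dry the family shares were 35.3%, 39.8% and 28.7%, and their difference from Dry was not tested. All 3 lay under the median of all genes in Hot-Dry, 45.6%. Only 25.2%, 35.5% and 12.4% of genes had a lower share than VgR-1, VgR and VgR-2. VgR-1 (adjusted p = 0.0472) and VgR (0.0238) passed there and VgR-2 (0.273) did not, where 67.5% of all genes did.

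By mean log2 cpm, family 496 was highest for VgR-1 and VgR in both Dry (6.35 and 6.90) and Control (6.13 and 6.78), and family 1077 was lowest for VgR-1 in Hot (4.79), Dry (5.22) and Control (5.43). Family 245 was lowest for VgR-2 in Hot (8.08), Dry (8.78) and Control (8.57) and highest in Hot-Dry (8.97).

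The response to the conditions also differed between families. A test of family by condition passed for VgR-1 (F = 2.48, adjusted p = 0.000569, edgeR), VgR (F = 2.28, adjusted p = 0.00162) and VgR-2 (F = 2.47, adjusted p = 0.000598), as it did for 61.4% of all genes. In Hot-Dry minus Control, family 710 had the lowest differences in VgR-1 (-0.84) and VgR (-0.89), and family 245 was higher in Hot-Dry than in Control for VgR-2 (0.41), VgR (0.23) and VgR-1 (0.026). Family 245 moved the other way in Hot minus Control, with -0.49, -0.33 and -0.28. Without family 245 the log2 fold change of VgR-2 in Hot-Dry minus Control was -0.32, against -0.27 with it. Each family had 1 vial per condition, so a family's response and a difference between its vials cannot be told apart. Over all females, condition accounted for 27.3% (VgR-1), 29.7% (VgR) and 32.3% (VgR-2) of the variance of log2 cpm. Fitting 1 mean per family and condition accounted for 69.0%, 68.2% and 66.7%. The same fit gave 62.6% for VgR2, 42.8% for Vg1 and 41.9% for Vg2. These shares were not corrected for the number of means fitted. Means of few females take up part of the variance by chance, so the shares overstate what family and condition explain.

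**Figure D4:**
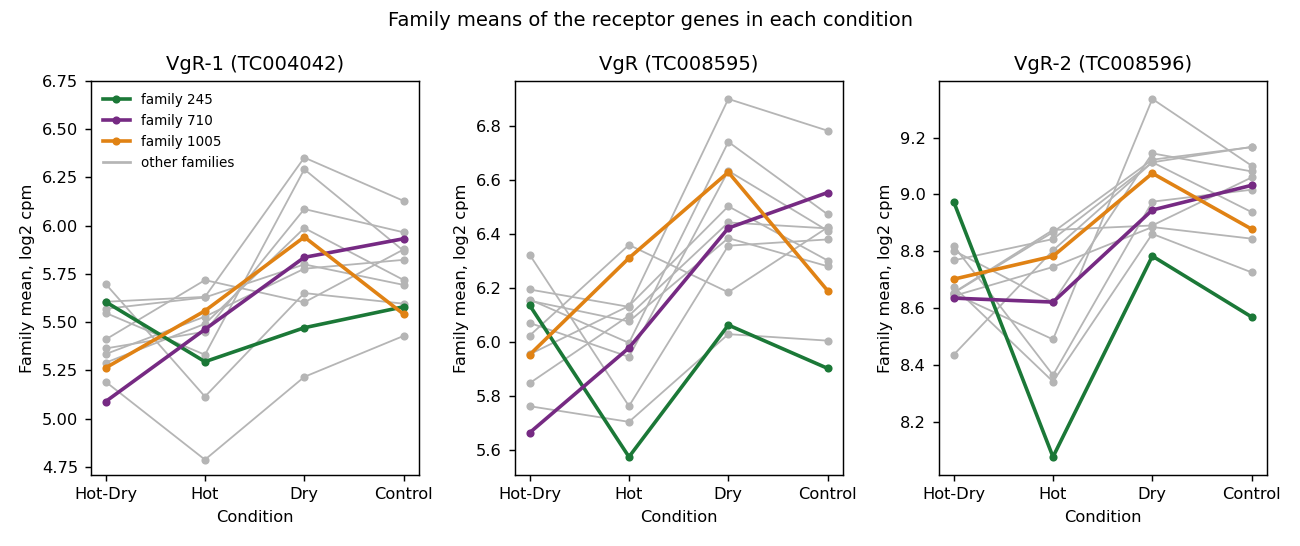
Mean log2 cpm (vertical axis) of VgR-1, VgR and VgR-2 in each of 12 families and 4 conditions, with 1 line a family. Families 245, 710 and 1005 are coloured. Most lines are lower in Hot-Dry and Hot than in Dry and Control, and family 245 has the highest VgR-2 value in Hot-Dry (8.97).

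Females with a high level of 1 receptor gene had high levels of the others. Over females of 1 condition, Pearson's r of log2 cpm between VgR and VgR-1 was 0.90 in Hot-Dry, 0.77 in Hot, 0.91 in Dry and 0.81 in Control, with Spearman's rho of 0.79, 0.69, 0.91 and 0.80. Females were exchanged within their families in 100000 permutations, so that a relation counted only beyond what family means gave, and p-values were adjusted over r and rho of all 48 relations computed. The adjusted permutation p of r was 0.00032, 0.000436, 0.000436 and 0.0022, and that of rho 0.00072, 0.00151, 0.000436 and 0.0022. Without the 2 females farthest from the median of VgR-1, r was 0.82, 0.74, 0.89 and 0.75.

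The relation of VgR-2 with VgR was also close, with r of 0.67, 0.72, 0.74 and 0.75 and rho of 0.59, 0.69, 0.76 and 0.74 in Hot-Dry, Hot, Dry and Control (adjusted permutation p of up to 0.00934 for r and 0.0159 for rho). With VgR-1 it was looser, with r of 0.59, 0.40, 0.68 and 0.60 and rho of 0.51, 0.59, 0.68 and 0.64. These passed in Hot-Dry, Hot and Dry (adjusted permutation p of up to 0.00562 for r and 0.0293 for rho) and not in Control (0.106 and 0.138). As deviations from family means, a form chosen after seeing the data, the 12 relations between receptor genes had r between 0.48 and 0.87. The genes share each female's library and scaling factor. VgR and VgR-2 have consecutive identifiers, and reads shared between similar genes cannot be told apart in the counts. Their count ratio varied between females with an SD of 0.20 to 0.24 on the log2 scale, where counting error alone gives 0.057 to 0.067.

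**Figure D5:**
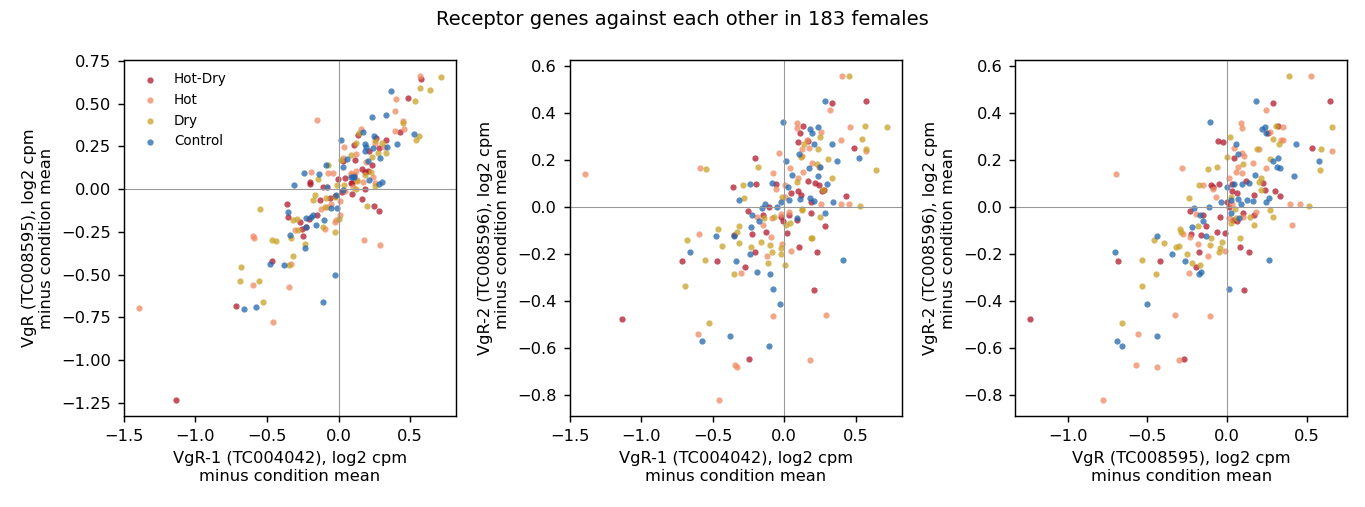
Log2 cpm minus the mean of the condition for pairs of receptor genes, with 1 point for each female, coloured by condition. VgR and VgR-1 lie closest to a line (r of 0.77 to 0.91 within conditions), and VgR-2 scatters more widely against VgR-1 (r of 0.40 to 0.68).

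Most relations with the vitellogenin genes did not pass. Among 24 relations of the 3 receptor genes with Vg1 and Vg2, r ran from -0.26 to 0.39, and 4 passed by r and 0 by rho. All 4 were in Control, between VgR-1 or VgR and Vg1 or Vg2 (for VgR and Vg1, r = 0.39, adjusted permutation p = 0.0159, and rho = 0.33, adjusted permutation p = 0.138). Without the 2 females farthest from the median of the vitellogenin gene this r was 0.31, and the other 3 fell to 0.19 (VgR-1 and Vg1), 0.096 (VgR-1 and Vg2) and 0.17 (VgR and Vg2), against 0.28, 0.24 and 0.32 with them. In Dry all 6 r were negative, between -0.26 and -0.11, and none passed. Without the 2 females farthest from the median of the vitellogenin gene they ran from -0.11 to 0.024. Whether these relations differed between conditions was not tested. With VgR2 (TC008425) r ran from -0.24 to 0.15, and 1 of 12 relations passed by r and 2 by rho. VgR-2 in Hot passed by both (r = 0.13, adjusted permutation p = 0.000436), where the r of family means was -0.13 and that of deviations from them 0.64. VgR-1 in Hot passed by rho alone (rho = -0.016, adjusted permutation p = 0.00934). Its r was -0.24, with -0.56 for family means and 0.32 for deviations from them. For both genes the relation beyond family means was thus positive.

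The genes most like each receptor over all females were sought among 8755 other genes that averaged 5 cpm or more, by Pearson's r of log2 cpm minus the condition mean. For VgR-1 these were VgR (r = 0.85), TC015608 (0.72) and TC007192 (0.66). For VgR they were VgR-1, VgR-2 (0.71) and TC015608 (0.62), and for VgR-2 they were VgR, VgR-1 (0.54) and TC001362 (0.54). The median r of all ranked genes was -0.0051 for VgR-1. VgR2 ranked 4779 for VgR-1 and 3339 for VgR-2, and Vg1 ranked 2957 and 1291. Family means were not removed, so differences between families and between females both entered these ranks. TC015608, given by its identifier alone, was lower in Hot-Dry than in Control by 0.35 (adjusted p = 5.88e-15, edgeR) and in Hot by 0.32 (adjusted p = 7.45e-13) on the log2 scale, close to the receptor genes themselves.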

How the data were processed

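Whole-body mRNA was sequenced from 183 females in separate libraries (LEXOGEN mRNA-Seq kit, single-end NextSeq reads, several runs, treatments randomized). The authors trimmed the reads, mapped them with STAR 2.5 to the Tcas3 assembly, counted them per gene with featureCounts and deposited raw counts without normalization. How strand and reads mapping to several genes were treated, and which run held which female, are not given in the sources used here. Columns were matched to females by name and conditions were taken from the labels. The filter kept genes exceeding 0.5 cpm in 5 or more females. EdgeR 4.0.16 (R 4.3.3) fitted condition means with TMM factors and the quasi-likelihood F test, p-values were adjusted by Benjamini-Hochberg over 12113 genes, and genes were called at 0.05 or less. The SE was obtained by dividing the size of the log2 fold change by the root of F. Log2 cpm had a prior count of 2. Family means were tested with exact sign-flip tests (Python 3.11.15, SciPy 1.17.1). Replicates are separate females. EdgeR's test and the sign-flip test were tried on simulated data. The simulated females were independent, without family or vial differences. For edgeR's test a high share of calls was required only for changes larger than those of the receptors.

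The members and lists were chosen with earlier results of these data known. Named genes were the 3 receptors, VgR2, Vg1 and Vg2, the 3 genes most like each receptor (averaging 5 cpm or more), and ovarian genes that passed a test. Alternatives were other normalizations (relative log expression, upper quartile, library size only), DESeq2 1.42.0, limma-voom (limma 3.58.1), other filters, blocks by replicate number or family, counts summed per family and condition, leaving out each of 12 families or 6 females under 6000000 counts, library size as a covariate, and fits on only the groups compared. No gene model of the files' build was used, so positions and sequences of the genes are not analysed here.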

Additional observations from a re-analysis of the deposited data

Results flagged for a closer look

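The response to the conditions differed between families for all 3 receptor genes, by a test of family by condition: F = 2.48 for VgR-1, 2.28 for VgR and 2.47 for VgR-2 (adjusted p = 0.000569, 0.00162 and 0.000598, edgeR's quasi-likelihood F test). The same test passed for 61.4% of all genes. Family 245 stood out in Hot-Dry minus Hot, where its VgR-2 difference was 0.90 on the log2 scale, and family 293 had the lowest, at -0.37. Vials within a family and condition cannot be told apart from the family's response.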

How the results depend on the processing

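The fold changes of the 3 receptor genes in 7 comparisons were recomputed under up to 28 alternatives each, 585 values in all, and 585 kept their side of the threshold, with the same direction wherever the gene was called. In Hot-Dry minus Control the log2 fold changes ranged over the alternatives from -0.39 to -0.25 for VgR-1, -0.37 to -0.23 for VgR and -0.32 to -0.17 for VgR-2, and in Hot minus Control from -0.37 to -0.30, -0.39 to -0.30 and -0.36 to -0.30. Of 42 recomputed sign-flip results, 39 were unchanged in call. VgR-2 in Hot-Dry minus Control lost its call with a prior count of 0.5 (-0.26, adjusted p = 0.0502) and with family medians (-0.24, adjusted p = 0.0943), and VgR-1 in Hot minus Control with family medians (-0.34, adjusted p = 0.0501). All 15 family tests kept their call with relative log expression factors. With family means in place of females, r was -0.13 for VgR-2 and VgR2 in Hot and -0.075 for VgR-1 and Vg2 in Control, the opposite sign. As deviations from the family means, added after seeing the data, r was 0.64 and 0.52. The cause was not tested.

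Replicate numbers recur in the conditions on different females. With the number as a replicate block the changes in Hot-Dry minus Control were -0.34, -0.34 and -0.27 for VgR-1, VgR and VgR-2, and no call of the 3 genes changed. Same-numbered females of different conditions correlated at 0.18 on average over 261 pairs, 174 of them above 0.1, and sibs with other numbers at 0.19, so the numbers were not taken as pairs. The number of genes called moved more: with counts summed per family and condition it was 1313 in Hot-Dry minus Control (3722 otherwise), 740 in Hot minus Control (3041), 1497 in Hot-Dry minus Dry (3910), 1549 in Hot minus Dry (3900), 1 in Dry minus Control (98) and 7 in Hot-Dry minus Hot (276). Limma-voom with a correlation within family and condition gave 1467, 791, 1558, 1430, 1 and 13 in the same order. Over all alternatives the lowest and highest counts were 1313 and 4507, 740 and 3850, 1497 and 4768, 1430 and 4739, 1 and 172, and 7 and 547 (437 with the replicate block), and 0 and 3 for the interaction. Dry minus Control fell to 64 without family 245 and with limma-voom, and Hot-Dry minus Hot was 434 without females under 6000000 counts, 168 without family 638 and 152 without family 710. Without TMM factors the calls in Hot minus Control split into 1777 higher and 659 lower, against 1559 and 1482 with them. The splits were 3172 and 640 against 1995 and 1915 in Hot-Dry minus Dry, 2120 and 962 against 1947 and 1953 in Hot minus Dry, and 287 and 92 against 120 and 156 in Hot-Dry minus Hot. Depth limited little: VgR-1 had 83 reads in the female with the fewest. Run could not be examined.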

Other observations

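The most extreme females differed in which receptor genes were low. The Hot female with the lowest VgR-1 (15.95 cpm, 83 reads, family 1077) had 39.2 cpm of VgR but 432 cpm of VgR-2, above the Hot median of 412 cpm. Her library was the smallest, with 4873334 counts. The Hot-Dry female with the lowest VgR (27.2 cpm, family 710) was low in VgR-1 (19.1 cpm) and in VgR-2 (298 cpm) as well, and the Hot female with the lowest VgR-2 (221 cpm, family 245) had 30.8 cpm of VgR-1 and 37.0 cpm of VgR. At the upper end, 1 Dry female of family 496 held the highest values of both VgR-1 (93.5 cpm) and VgR (137 cpm).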
